A study of Mus musculus with 6 samples.

Results

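The microRNAs miR-142a, miR-223, miR-150, miR-155, miR-146a and miR-146b are known mainly from white blood cells, and this account follows them in mouse heart muscle after death. They were taken by name: every row of the deposited files whose name begins with 1 of these 6 stems was used, which gave 11 mature miRNAs of the 984 in each file. These were both arms of miR-142a, miR-223, miR-150, miR-155 and miR-146b, and the 5p arm of miR-146a. Small RNA was read from mouse myocardial tissue in 6 libraries: 3 of tissue taken at death (0 h) and 3 of tissue left for 6 d after it. The labels give the interval in the genotype field, and give no strain, age, sex, allele or treatment. Whether replicates are different animals is not said, so each p-value reflects the spread among these libraries alone, and that spread may be technical.

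A miRNA is cut from a hairpin precursor that gives a 5p and a 3p arm. Usually 1 of these is loaded into an Argonaute protein and kept, and it pairs with messenger RNAs through its seed, bases 2 to 8. miR-142 is made in nearly all blood cell lineages and is widely used as a marker of leukocytes. miR-223 is a miRNA of neutrophils, monocytes and platelets, and miR-150 one of mature B and T cells. miR-155 and miR-146a are induced by inflammatory signals through NF-kB. miR-155 promotes inflammatory responses, and miR-146a dampens them by targeting the adaptors Irak1 and Traf6. The last 2 are less restricted to leukocytes, since endothelium and other cells also make miR-146.

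The mature sequences show which arms could share targets and which rows could share reads. RefSeq (GRCm38.p6) held 10 of the 11, all but miR-150-5p. Given 5′ to 3′, with the seed in capitals, are those of 6 abundant or main arms and of miR-150-3p, a minor arm shown because it is the member called by limma.
miR-142a-5p: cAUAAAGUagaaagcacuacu
miR-142a-3p: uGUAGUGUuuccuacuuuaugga
miR-223-3p: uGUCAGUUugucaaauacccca
miR-155-5p: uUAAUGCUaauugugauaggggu
miR-146a-5p: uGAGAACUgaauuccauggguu
miR-146b-5p: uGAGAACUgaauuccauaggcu
miR-150-3p: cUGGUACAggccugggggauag
miR-146a-5p and miR-146b-5p were the only pair of the 10 with a common seed, GAGAACU. No other miRNA of the deposited files with a sequence in that table had the seed of any of the 10. From miR-146a-5p to miR-146b-5p, counted from the 5′ end, the 22 bases differed by 2 substitutions, G18A and U21C. The split of reads between this pair is uncertain, since the treatment of reads that end before these bases is not given in the sources used here.

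The precursor of miR-142a shows how its arms lie, with the 5p and then the 3p arm in capitals.
Mir142: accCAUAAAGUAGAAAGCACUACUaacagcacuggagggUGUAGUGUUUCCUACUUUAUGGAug
On GRCm38 it lies at chr11:87756864-87756927 on the plus strand, in an intron of the long noncoding RNA Mir142hg in GENCODE M21. Mir142b is annotated on the opposite strand there and was not analysed here. Mir223 lies at chrX:96242817-96242926 in an exon of F630028O10Rik, and the miR-155-5p sequence at chr16:84714143-84714165 in an exon of Mir155hg. The miR-146b-5p sequence lies at chr19:46342790-46342811 in an intron of the protein-coding gene Mfsd13a. The miR-146a-5p sequence, at chr11:43374435-43374456 on the minus strand, and the miR-150-3p sequence, at chr7:45121798-45121819, overlapped no gene other than their own precursor. The deposited files carry no coordinates, and their build is not given in the sources used here.

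The libraries held 4468547 to 7906557 miRNA reads at 0 h and 617069 to 1889594 at 6 d, so low miRNAs were measured less well at 6 d. Levels are given as normalised CPM, the read counts divided by depth times a factor for each library, as in the deposited files. This factor ranged from 0.760 (0 h replicate 2) to 1.80 (6 d replicate 3). A floor of 3 reads was worth 0.463 to 0.730 CPM at 0 h and 1.91 to 3.97 CPM at 6 d, which covers counting error only. The heart marker miR-1a-3p stood at 110064 to 532712 CPM in the 6 libraries, and no marker of the cardiomyocyte, endothelial or smooth muscle list was without reads. Over all tested miRNAs the median log2 fold change was -0.33 on this scale, and 0.02 with library totals alone. Absolute amounts were not measured. In tissue, fewer cells of a type and less RNA per cell cannot be told apart.

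The 11 leukocyte miRNAs together made up 0.504%, 0.364% and 0.146% of the reads of 0 h replicates 1, 2 and 3. At 6 d they made up 0.476%, 0.628% and 0.575%. The ranges overlapped, and 0 h replicate 3 stood well below the other 5 libraries. By level the order at 0 h was miR-146a-5p (3088 ± 1760 CPM), miR-146b-5p (297 ± 211), miR-142a-5p (202 ± 109), miR-142a-3p (158 ± 38.1), miR-150-5p (147 ± 32.1), miR-155-5p (52.3 ± 17.0), miR-223-3p (11.0 ± 4.03), miR-223-5p (8.97 ± 4.03) and miR-150-3p (5.44 ± 0.39), each as mean ± SD of 3 libraries. The libraries of miR-146b-5p, both arms of miR-142a and miR-150-5p overlapped one another at 0 h, as did those of the arms of miR-223, and of miR-223-5p and miR-150-3p. At 6 d the order was miR-146a-5p (3585 ± 1315 CPM), miR-146b-5p (461 ± 207), miR-142a-5p (444 ± 160), miR-142a-3p (185 ± 86.5), miR-155-5p (101 ± 38.3), miR-150-5p (97.4 ± 67.9), miR-223-3p (32.9 ± 18.4), miR-223-5p (6.20 ± 0.86) and miR-150-3p (0.653 ± 0.662). miR-155-5p and miR-150-5p, which overlapped at 6 d, had the opposite order at 0 h, where they did not overlap. miR-146a-5p stood above every other leukocyte miRNA in each library, and was the miRNA with the 29th highest mean of all 984 at 0 h and the 25th at 6 d. It alone gave 65.3% to 80.4% of the leukocyte miRNA reads at 0 h and 67.2% to 81.5% at 6 d. A mature miRNA gives 1 read per molecule sequenced and the sequences are 21 to 23 bases long, so no length correction was made.

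**Figure D1:**
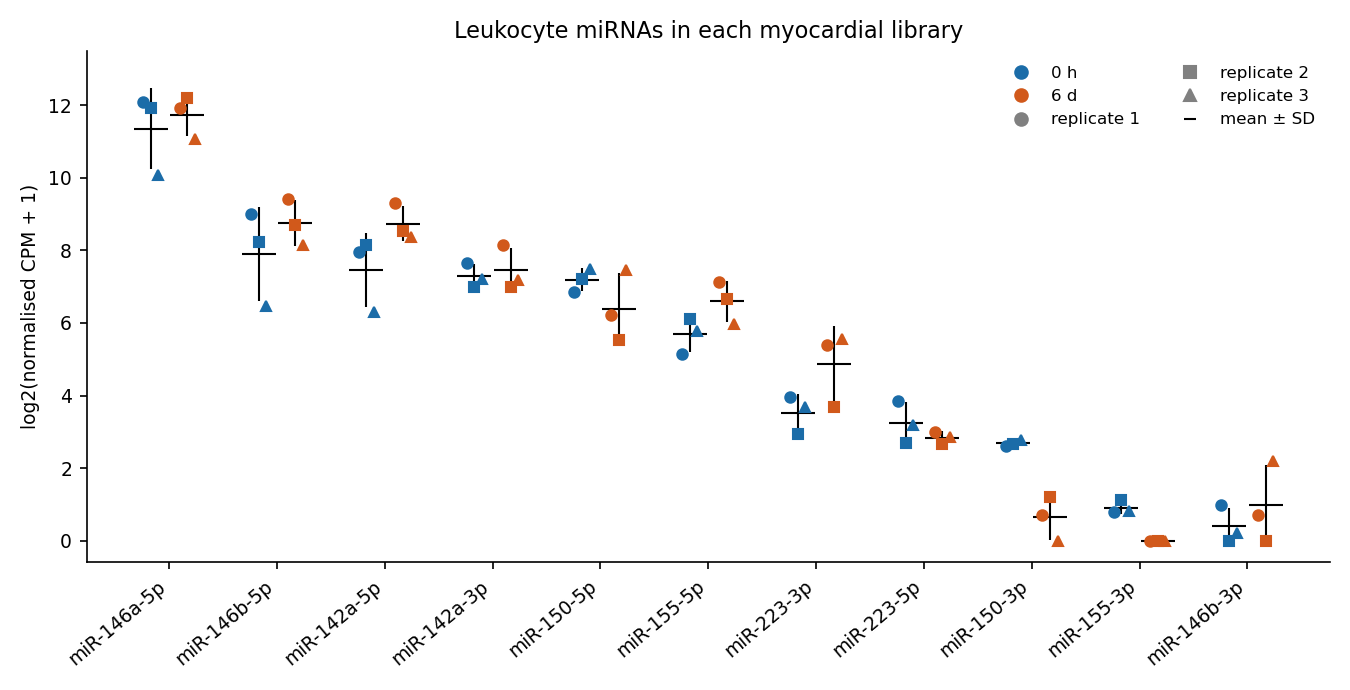
Levels of the 11 leukocyte miRNAs as log2(normalised CPM + 1), with 1 point per library, 0 h in blue and 6 d in orange, the marker shape giving the replicate, and black bars the mean ± SD of 3 libraries. The 3 libraries of each interval are apart for miR-142a-5p (higher at 6 d) and for miR-150-3p and miR-155-3p (lower at 6 d). Of these, miR-155-3p had few reads at 0 h and was not tested. The value of 0 h replicate 3 is low for miR-146a-5p, miR-146b-5p and miR-142a-5p.

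Between 6 d and 0 h, 1 of the 9 leukocyte miRNAs that passed the filter on low values (at least 1 CPM in at least 3 libraries) was past the threshold of a limma adjusted p under 0.05. Over all 470 tested miRNAs this share was 37.9%. The member that fell was miR-150-3p, the minor arm of miR-150, and 0 rose, while 16% of all tested miRNAs rose and 21.9% fell. At an unadjusted p under 0.05 there were 4 of 9, against 47.7% of all tested. The libraries of the intervals did not overlap for 2 of 9, against 50.6% of all tested. The fold change was above 0 for 6 of the 9, against 38.1% of all tested. The median log2 fold change was 0.38, against -0.33 over all tested. With library totals alone these medians were 0.84 and 0.02. The quasi-likelihood test of edgeR on the recovered reads called 3 of the 9, against 43% of its 363 tested miRNAs. It called miR-142a-5p and miR-223-3p higher (22.3% of all its tested were) and miR-150-3p lower (20.7%). DESeq2 called 4 (35.2% of all its tested) and limma-voom 4 (43.3%). Limma called 3 with RLE size factors (37.2%), 3 with library totals alone (26.1%) and 3 with the replicate number as a block (41.5%). The other arms, miR-155-3p and miR-146b-3p, did not pass the filter.

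**Figure D2:**
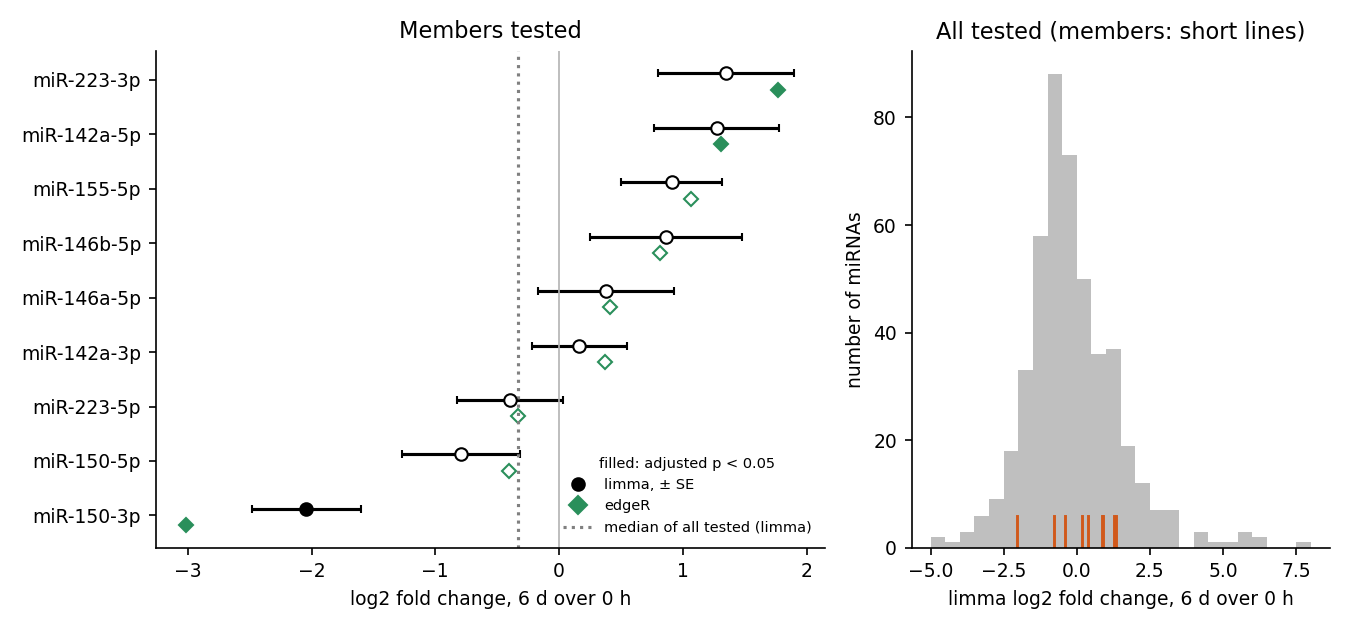
Left, log2 fold change of 6 d over 0 h for the 9 leukocyte miRNAs tested, by limma (circles, ± SE) and edgeR (diamonds), filled where the adjusted p was under 0.05; right, the limma values of all 470 tested miRNAs as a histogram with the 9 marked by short lines. With limma only miR-150-3p, at -2.04, is filled.

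The arms of miR-142a, the marker of blood cells in general, differed in fold change, though the change of their ratio was not called. mmu-miR-142a-5p stood at 249, 280 and 77.5 CPM in 0 h replicates 1 to 3 and at 627, 372 and 332 CPM in 6 d replicates 1 to 3. All 6 d libraries lay above all 0 h libraries, which was so for 19.8% of all tested miRNAs. The log2 fold change was 1.27 ± 0.50 (SE, n = 3 each) with a limma adjusted p of 0.071, and by edgeR 1.31 with an adjusted p of 0.034. With limma it was called with RLE size factors (adjusted p = 0.043) and with library totals alone (0.030), and without 0 h replicate 3 the log2 fold change was 0.69 (adjusted p = 0.23). The 3p arm, mmu-miR-142a-3p, stood at 200, 125 and 148 CPM at 0 h and at 284, 126 and 145 CPM at 6 d. Its ranges overlapped, and its log2 fold change was 0.16 ± 0.38 (limma adjusted p = 0.75). Without 6 d replicate 1, the library with the highest value, it was -0.19.

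Scaling of a library cancels in the ratio of the arms of 1 precursor. The test adds 1 read to each arm, so for arms with few reads depth does not cancel fully. For miR-142a the 5p arm had 1.25, 2.24 and 0.524 times the reads of the 3p arm at 0 h, and 2.20, 2.96 and 2.29 times at 6 d. In 0 h replicate 3 the 3p arm was thus the more abundant, and 0 h replicate 2 lay within the range of 6 d. The log2 ratio was 1.11 ± 0.57 higher at 6 d and not called (limma adjusted p = 0.14), while 38.8% of the 116 precursors with both arms tested were. Without 0 h replicate 3 the difference was 0.55.

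mmu-miR-223-3p, the myeloid miRNA that restrains neutrophil activation, had 60, 40 and 76 reads in the 0 h libraries and 64, 9 and 51 in those of 6 d. These reads corresponded to 14.6, 6.65 and 11.7 CPM at 0 h and to 40.7, 11.9 and 46.0 CPM at 6 d. Replicates 1 and 3 of 6 d were above all 0 h libraries, and 6 d replicate 2, with its 9 reads, was within their range. The log2 fold change was 1.35 ± 0.55 (limma adjusted p = 0.077), and by edgeR 1.77 (adjusted p = 0.019). Without 6 d replicate 2 it was 1.95 and called by limma (adjusted p = 0.011). It was also called by limma with RLE size factors (adjusted p = 0.045) and not with library totals alone (0.075).

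The other arm, miR-223-5p, had 55, 33 and 52 reads in the 0 h libraries and 11, 4 and 7 in those of 6 d, or 13.4, 5.49 and 8.03 CPM at 0 h and 7.0, 5.29 and 6.32 CPM at 6 d. Its log2 fold change was -0.40 ± 0.43 (limma adjusted p = 0.49), and with library totals alone it was 0.0053. The ratio of 5p to 3p reads was 0.917, 0.825 and 0.684 at 0 h, near equal, and 0.172, 0.444 and 0.137 at 6 d. All 3 libraries of 6 d lay below all of 0 h, and the log2 ratio fell by 1.74 ± 0.60 (limma adjusted p = 0.049). Of the 116 precursors 19.8% moved toward the 3p arm. This call was close to the threshold: it was lost with 0.5 reads added to each arm (adjusted p = 0.058), with the replicate block (0.072) and without any 1 of the libraries other than 6 d replicate 2 (0.070 to 0.17). Without 6 d replicate 2 the adjusted p was 0.016.
The hairpin is given with both arms in capitals to show which part each of them takes.
Mir223: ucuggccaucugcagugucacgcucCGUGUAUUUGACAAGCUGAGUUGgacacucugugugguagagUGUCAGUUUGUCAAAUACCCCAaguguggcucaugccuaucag

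mmu-miR-150-5p, the lymphocyte miRNA that targets Myb, stood at 115, 147 and 180 CPM at 0 h. At 6 d it stood at 73.2, 45.0 and 174 CPM. Replicates 1 and 2 of 6 d were below all 0 h libraries, and 6 d replicate 3 was in their range. The log2 fold change was -0.79 ± 0.47 (limma adjusted p = 0.21), and by edgeR -0.40 (adjusted p = 0.55). Without 6 d replicate 3 it was -1.32 and called by limma (adjusted p = 0.021).

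Reads of mmu-miR-150-3p numbered 21, 32 and 38 in the 0 h libraries, against 1, 1 and 0 in those of 6 d. At 0 h this was 5.11, 5.32 and 5.87 CPM, and at 6 d 0.637, 1.32 and 0 CPM. The 0 h values were the most even of the leukocyte miRNAs, but at so few reads counting error is large, so this is not read as a trait. mmu-miR-150-3p fell by 2.04 ± 0.44 on the log2(CPM + 1) scale (limma adjusted p = 0.0064), a scale that understates the change of a low miRNA. The pooled reads gave 6 d a level 0.106 times that of 0 h, and counting error alone put this between 0.0127 and 0.395 (95%, exact). At the rate of 0 h, 18.8 reads would have been seen at 6 d, against 2. The libraries of the intervals did not overlap, and 30.9% of all tested miRNAs were lower at 6 d in this way. It passed the filter through the 0 h libraries, with only 1 of the 6 d libraries above 1 CPM, so the filter itself favoured a lower value at 6 d. Every library was also thinned to 617069 reads, in 1 random draw. There 0 h replicates 1 to 3 kept 2, 0 and 1 reads and those of 6 d 0, 1 and 0. The call was lost (log2 fold change -0.66, limma adjusted p = 0.57). With so few reads kept, this depends on the draw, and other draws were not made. It does not show that the difference is absent at equal depth. The log2 ratio of 5p to 3p was 1.17 ± 0.82 higher at 6 d and not called (limma adjusted p = 0.29), with 115, 34 and 193 reads of the 5p arm at 6 d. With 0.5 reads added to each arm in place of 1 it was 1.75 higher (limma adjusted p = 0.17). Its size thus depends on the reads added.

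Of the miRNAs induced by inflammation, mmu-miR-155-5p stood at 34.6, 68.4 and 53.9 CPM at 0 h and at 139, 101 and 62.3 CPM at 6 d. Replicates 1 and 2 of 6 d were above all 0 h libraries, and 6 d replicate 3 was within their range. The log2 fold change was 0.91 ± 0.41 (limma adjusted p = 0.10), and by edgeR 1.07 (adjusted p = 0.058). DESeq2 (adjusted p = 0.032) and limma-voom (0.047) called it, as did limma with library totals alone (0.029) or without 6 d replicate 3 (0.037). Its 3p arm had 3, 7 and 5 reads in the 0 h libraries and 0 in each of 6 d, where 3.10 reads would have been seen at the rate of 0 h, so a difference was not detectable at this depth.

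mmu-miR-146a-5p, the most abundant leukocyte miRNA here, stood at 4339, 3850 and 1076 CPM at 0 h and at 3866, 4737 and 2152 CPM at 6 d. The ranges overlapped, with replicate 3 the lowest at both intervals. The log2 fold change was 0.38 ± 0.55 (limma adjusted p = 0.63), and without 0 h replicate 3 it was -0.26. mmu-miR-146b-5p, which shares its seed, stood at 508, 297 and 87.1 CPM at 0 h and at 687, 414 and 282 CPM at 6 d, and its ranges overlapped too. Its log2 fold change was 0.87 ± 0.62 (limma adjusted p = 0.29), and 0.15 without 0 h replicate 3. There were 8.54, 13.0 and 12.4 reads of miR-146a-5p per read of miR-146b-5p at 0 h, and 5.62, 11.4 and 7.62 at 6 d. The minor arm miR-146b-3p had 5 reads in all at each interval, of which 4 were in 0 h replicate 1 and 4 in 6 d replicate 3.

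Ratios between pairs of leukocyte miRNAs were compared, 6 in all, by exact two-sided permutation tests over the libraries, where the smallest p of 3 against 3 is 0.1. Only the ratio of the myeloid miR-223-3p to miR-142a-3p had no overlap, with 0.0732, 0.0531 and 0.0793 at 0 h and 0.143, 0.0947 and 0.317 at 6 d. Its log2 value was 1.30 higher at 6 d (exact p = 0.1, 0.45 adjusted over the 6 ratios). The ratio of the lymphoid miR-150-5p to miR-142a-3p was 0.578, 1.17 and 1.21 at 0 h and 0.257, 0.358 and 1.20 at 6 d, with a log2 difference of -0.95 (exact p = 0.3). In 6 d replicate 3 it was as in the 0 h libraries, while in the other 2 it was below them. The log2 differences were 0.76 for miR-155-5p (exact p = 0.3), 0.70 for miR-146b-5p (exact p = 0.5) and 0.21 for miR-146a-5p (exact p = 0.9), each over miR-142a-3p. For miR-146a-5p over miR-146b-5p the difference was -0.50 (exact p = 0.2). None of the 6 reached an adjusted p under 0.45, and the design cannot give a raw p under 0.1.

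**Figure D3:**
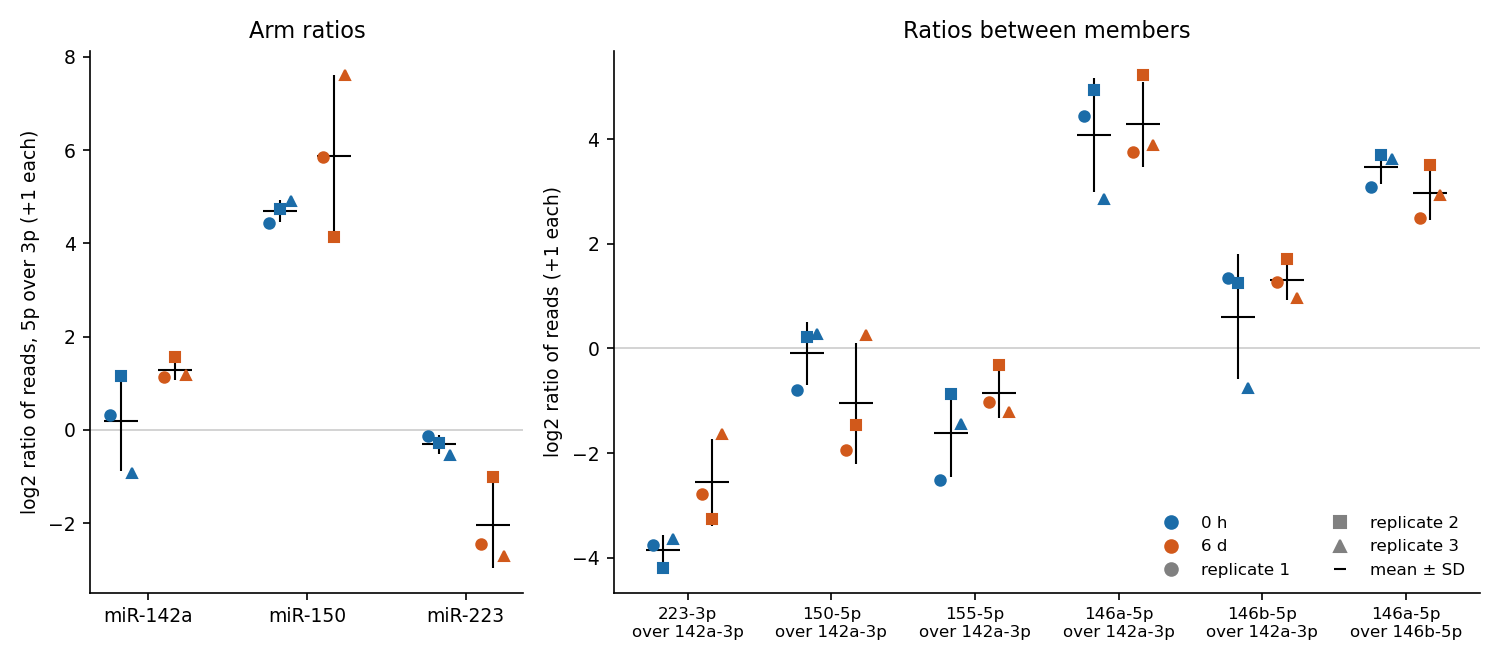
Log2 ratios of reads with 1 read added to each, per library, for the arms of 3 precursors (left, 5p over 3p) and between leukocyte miRNAs (right); points and bars as in the plot of levels. The intervals are apart for the arms of miR-223 and for miR-223-3p over miR-142a-3p, and 0 h replicate 3 is the lowest for the arms of miR-142a and for miR-146a-5p and miR-146b-5p over miR-142a-3p.

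The make-up of the leukocyte miRNA reads differed among libraries of 1 interval. miR-150-5p made up 2.11%, 3.06% and 10.9% of them at 0 h and 1.28%, 0.774% and 5.44% at 6 d, so it was highest in replicate 3 of both intervals. miR-142a-5p made up 4.55% to 5.85% at 0 h and 6.40% to 10.9% at 6 d, with no overlap. By level, 19.8% of all tested miRNAs had all 6 d libraries above all 0 h libraries. These percents also depend on miR-146a-5p, which gave most of the leukocyte miRNA reads. miR-155-5p ranged from 0.631% to 3.27% at 0 h and from 1.73% to 2.42% at 6 d. In 0 h replicate 3, 3 of the 9 tested leukocyte miRNAs had their lowest 0 h value: miR-146a-5p, miR-146b-5p and miR-142a-5p. With 3 libraries at 0 h, an even spread would give 3 of 9, so the count alone does not set that library apart.

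**Figure D4:**
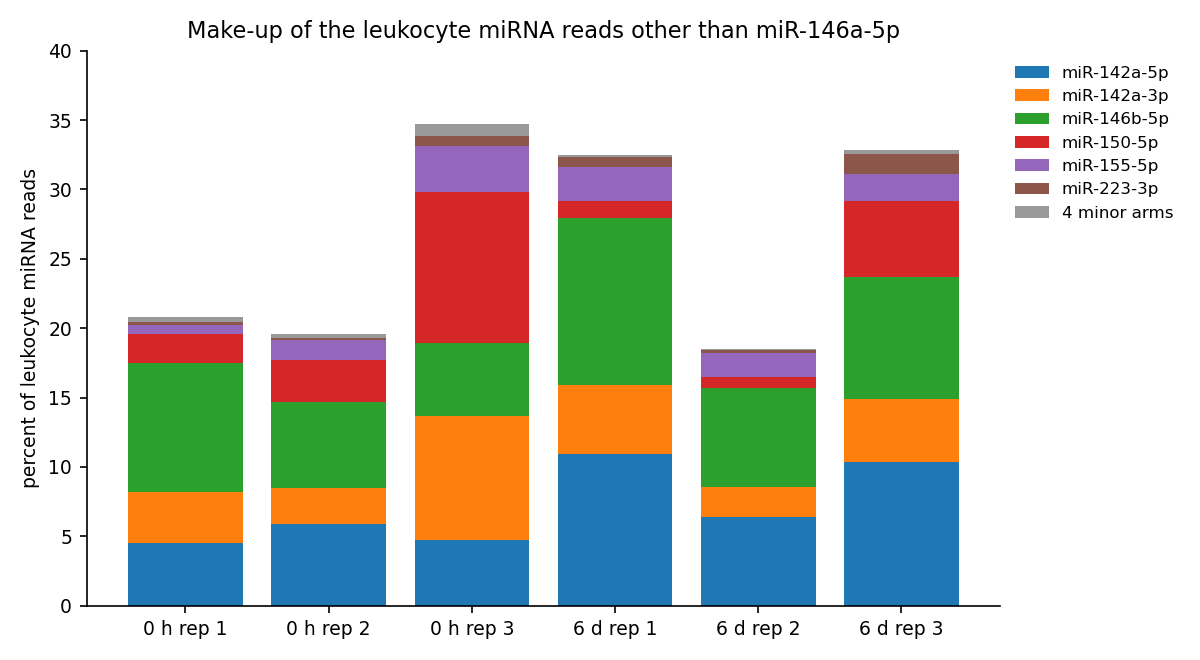
Percent of all leukocyte miRNA reads taken by each member other than miR-146a-5p, stacked per library; the rest up to 100% is miR-146a-5p, and the 4 minor arms are miR-150-3p, miR-223-5p, miR-155-3p and miR-146b-3p. miR-142a-5p takes a larger share in every 6 d library than in any 0 h library, and miR-150-5p is largest in 0 h replicate 3.

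The miRNAs of the series whose pattern over the 6 libraries was most like each of the 7 main leukocyte miRNAs were sought among 268 tested miRNAs with a mean of at least 10 CPM. Likeness was the root mean square difference of log2 values, each centred on its own mean over the 6 libraries, and is a description only. For miR-155-5p the nearest was miR-15a-5p (0.15, against a median of 1.02 over the 268), then miR-186-5p (0.29) and miR-1839-5p (0.32). For miR-142a-3p they were miR-19a-3p (0.24), miR-199b-5p (0.28) and miR-136-5p (0.31), and for miR-142a-5p miR-16-5p (0.43), miR-7a-5p (0.46) and miR-140-3p (0.47). For miR-150-5p they were miR-204-5p (0.32), miR-744-5p (0.38) and let-7b-3p (0.39), and for miR-223-3p miR-181a-1-3p (0.40), miR-224-5p (0.46) and miR-345-5p (0.50). For miR-146a-5p they were miR-3535 (0.43), miR-19b-3p (0.43) and miR-30a-5p (0.52), and for miR-146b-5p miR-144-5p (0.55), miR-19b-3p (0.57) and miR-7a-5p (0.61). Between leukocyte miRNAs the closest pairs were miR-142a-5p with miR-146b-5p (0.38) and miR-146a-5p with miR-146b-5p (0.43). The arms of miR-142a differed by 0.83 and miR-150-5p from miR-146b-5p by 1.5, the largest difference of any pair.

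Other miRNAs of blood and inflammation were read from lists of markers. The lists were chosen with earlier results of these data known, so their counts of calls are a description only. Of 4 lymphoid companions, 3 rose with limma, 0 fell, and 3 rose with edgeR, beside 16% and 22.3% of all tested miRNAs that rose. miR-181a-5p, which tunes T cell receptor signalling and is also made in many other tissues, rose by 1.88 ± 0.45 on the log2 scale (limma adjusted p = 0.0095), and was highest in 6 d replicate 3 (11182 CPM, against 3398 and 4296). miR-181b-5p rose by 1.65 ± 0.31 (limma adjusted p = 0.0031), and miR-342-5p by 1.26 ± 0.40 (0.032). miR-342-5p had 21 reads at 0 h and 15 at 6 d and passed the filter through the 6 d libraries, and its call was lost without that filter (adjusted p = 0.091), with DESeq2 (0.054), after thinning (0.060), with the replicate block (0.059) and without 0 h replicate 1, 2 or 3 or 6 d replicate 1 (0.065 to 0.15). The median log2 fold change of these 4 was 1.45. The lymphocyte miRNA miR-150-5p, not in this list, had a negative log2 fold change (-0.79, limma adjusted p = 0.21). The 3p arms of miR-181a were not listed either. Of these, miR-181a-2-3p fell by 2.79 (limma adjusted p = 0.0014), and miR-181a-1-3p, at 0.89, was not called (0.11).

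Of the macrophage and monocyte list, 2 of 4 members were tested and 1 rose, where 16% of all tested miRNAs rose. It was miR-652-3p, which rose by 1.23 ± 0.32 (limma adjusted p = 0.014), a call lost without 0 h replicate 3 (adjusted p = 0.057) or 6 d replicate 2 (0.055). miR-511-3p, which lies in the gene of the macrophage mannose receptor Mrc1, had 26 reads at 0 h and 4 at 6 d (log2 fold change -0.25, limma adjusted p = 0.66). Of the inflammation list, 5 of 7 members were tested, 1 rose and 1 fell, shares near those over all tested miRNAs (16% and 21.9%). miR-21a-5p, induced in macrophages and in injured tissue, rose by 1.24 ± 0.40 (limma adjusted p = 0.035), a call lost without the filter on low values (adjusted p = 0.053), without any 1 of the 0 h libraries (0.072 to 0.12) or without 6 d replicate 1, where the log2 fold change was 0.79 (adjusted p = 0.063). miR-212-5p fell by 1.86 ± 0.52 (limma adjusted p = 0.020), a call lost with library totals alone (0.17) and without 0 h replicate 2 (0.055) or 0 h replicate 3 (0.070).

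Markers of other cells were read too, and some of them were called. Each count below stands beside the 16% of all tested miRNAs that rose and the 21.9% that fell. The part of these markers in the values of the leukocyte miRNAs was not tested. All 7 miRNAs of the red blood cell list were tested, of which 1 rose and 2 fell, beside 16% and 21.9% of all tested miRNAs. The summed level of the list was 34526 to 45348 CPM at 0 h and 70344 to 114825 at 6 d, with no overlap and none of the 7 without reads. This difference was that of miR-451a: the other 6 had overlapping sums, of 22982 to 30252 CPM at 0 h against 19341 to 25209 CPM for 6 d. miR-486a-5p and miR-486b-5p, with 213020 and 213236 reads at 0 h, may be the same reads entered under both names, and the sum holds both. The member that rose was miR-451a, by 2.30 ± 0.35 (limma adjusted p = 0.0011), and those that fell were miR-486a-3p, by 1.79 ± 0.36 (0.0041), and miR-486b-3p, by 1.66 ± 0.55 (0.036). Under scaling by library totals both falls lost their call (adjusted p = 0.074 and 0.20). That of miR-486b-3p, with 8 reads at 6 d, was also lost with RLE size factors (0.067), DESeq2 (0.088), limma-voom (0.064), thinning (0.15) and no filter (0.055), and without 0 h replicate 1 (0.086), 0 h replicate 2 (0.16) or 6 d replicate 1 (0.093). The 4 markers of epithelium and liver (miR-200a-3p, miR-200b-3p, miR-205-5p and miR-122-5p), which all rose, had sums of 707 to 1427 CPM at 0 h, and of 4028 to 24457 CPM at 6 d. Of these, miR-205-5p had 19 reads at 0 h against 250 at 6 d and passed the filter through the 6 d libraries, so the filter itself favoured a higher value there. The 5 cardiomyocyte markers had sums of 256919 to 491616 CPM at 0 h, and of 113393 to 535915 CPM at 6 d, and 1 of them rose (miR-133a-3p) and 2 fell (miR-208a-3p and miR-499-5p). Both falls lost their call under scaling by library totals (adjusted p = 0.12 and 0.11), and that of miR-208a-3p was also lost with DESeq2 (0.053) and without 0 h replicate 1 or 3 or 6 d replicate 2 or 3 (0.060 to 0.087). The 2 endothelial arms had sums of 56921 to 88648 CPM at 0 h, and of 25279 to 35076 CPM at 6 d, and miR-126a-3p fell, a call lost under scaling by library totals, where its adjusted p was 0.11 at a log2 fold change of -0.87. The 2 smooth muscle markers, of which miR-143-3p is the more abundant, had sums of 75146 to 79578 CPM at 0 h, and of 27916 to 90469 CPM at 6 d, and 0 were called.

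**Figure D5:**
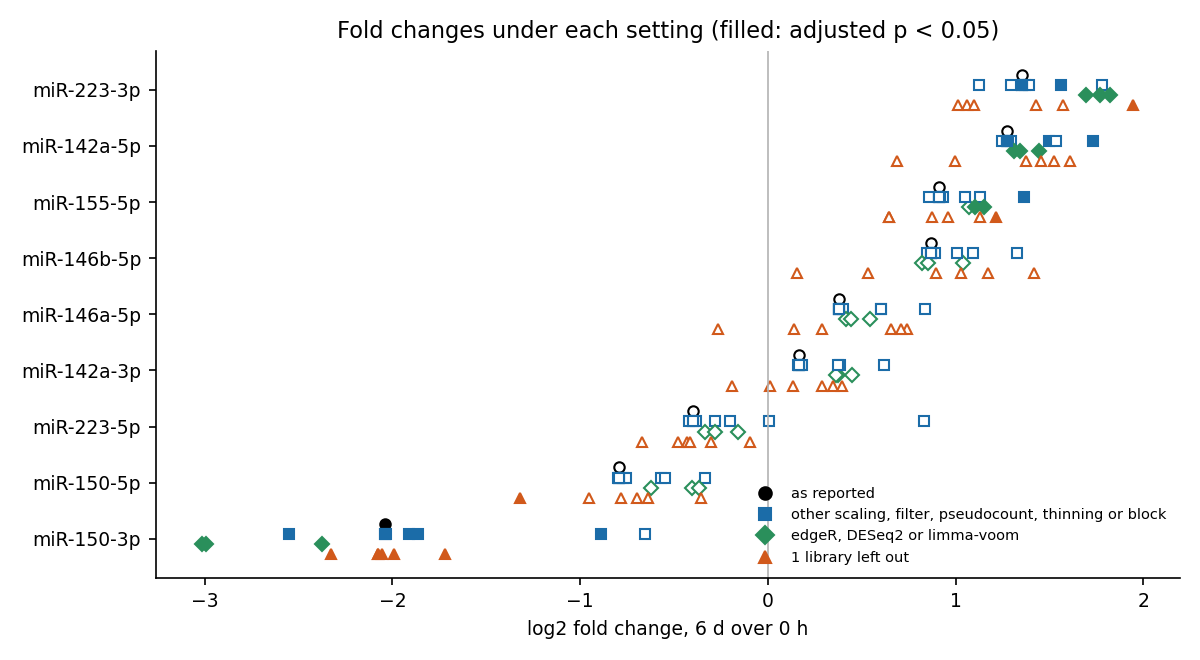
Log2 fold change of 6 d over 0 h for the 9 leukocyte miRNAs tested under every setting run, with 1 point per setting, the marker giving the kind of setting and the fill an adjusted p under 0.05. miR-150-3p and miR-150-5p are below 0 throughout, and miR-223-3p, miR-142a-5p, miR-155-5p and miR-146b-5p are above 0 throughout. miR-146a-5p, miR-142a-3p and miR-223-5p lie on both sides of 0.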

How the data were processed

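Trizol RNA of mouse heart muscle went into NEBNext small RNA libraries, per the labels' protocols. FastQC, Trimmomatic 0.39, cutadapt 2.8 and STAR 2.5.3a are listed without roles, per the submitters' processing notes. For 0 h replicate 1 the authors deposited raw counts, and for each of the other 5 libraries they deposited log2 values rounded to 3 decimals. Undoing log2(x + 1) gave whole multiples of 1 step per library for 2692 of the 2692 values that the rounding (0.0005 on the log2 scale either way) lets one test, of 3110 nonzero values, so reads were recovered. The counts of 0 h replicate 1 were put on the common scale with a factor of 0.919, derived here so that the 6 factors multiply to 1.

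The test was limma 3.58.1 (trended prior, robust) on log2(normalised CPM + 1) over miRNAs with at least 1 CPM in at least 3 libraries, with Benjamini-Hochberg adjustment over all of them. For arm ratios, limma was run on log2 reads with 1 added to each arm, and the trend followed the mean abundance of the arms. edgeR 4.0.16 (quasi-likelihood), DESeq2 1.42.0 and limma-voom were run on the recovered reads. Scripts were tested on simulated data. No pair of replicates was within sampling noise (lowest chi-square over degrees of freedom, 216). The miRNAs studied and the marker lists were chosen with earlier results of these data known. Named miRNAs are all that match the 6 stems, the 3 most alike in pattern, seed mates, and the called and most abundant members of each list. Sequences and positions are from RefSeq and GENCODE M21.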

Additional observations from a re-analysis of the deposited data

How the results depend on the processing

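The count of 1 leukocyte miRNA called with limma became 3 with RLE size factors, with library totals alone, with edgeR and with the replicate block, and 4 with DESeq2 and with limma-voom. It became 0 after thinning, made in 1 random draw, where 28.3% of all tested miRNAs were called. With at least 10 CPM in at least 3 libraries it was 0 of 7, against 52.5% of all tested. There miR-150-3p was not tested. With 1 library left out it ranged from 1 to 3, beside 25.7% to 40.3% of all tested. Leaving out 1 library moved the 178 calls over all tested miRNAs to between 114 (0 h replicate 1 left out) and 179, and the 984 miRNAs tested without a filter gave 153. The split of 75 higher and 103 lower became 83 and 40 with library totals alone, 90 and 84 with RLE size factors and 97 and 75 with DESeq2. Arm ratios gave 45 calls, 27 of 53 precursors with both arms at 10 CPM or more, and 24 to 48 with 1 library left out.

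Among the leukocyte miRNAs, the log2 fold changes that changed sign, none of them called, were those of miR-223-5p with library totals alone (0.0053) and after thinning (0.83), of miR-146a-5p without 0 h replicate 3 (-0.26; -0.26 to 0.74 with 1 library left out) and of miR-142a-3p without 6 d replicate 1 (-0.19; -0.19 to 0.39). The log2 difference of miR-146a-5p over miR-142a-3p ranged from -0.40 to 0.64 with 1 library left out, and was below 0 without 0 h replicate 3 (-0.40) or 6 d replicate 2 (-0.26). Of the marker lists, 7 of 31 tested members changed sign in at least 1 setting, 0 of them called: miR-1a-3p, miR-126a-5p, miR-145a-5p, miR-212-3p, miR-486a-5p, miR-486b-5p and miR-511-3p. In each case the cause was not tested.

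As to pairing, libraries with the same number had correlations of 0.068, 0.064 and 0.27 between their deviations from the group means. By this measure 0 h replicates 2 and 3 were each closest to the 6 d library of their own number, replicate 2 narrowly (0.064, against 0.058 for 6 d replicate 1). For 0 h replicate 1 the closest was 6 d replicate 2 (0.16). Since 2 of the correlations of a shared number are under 0.1, a shared number was not read as a pair. With the replicate block 195 miRNAs were called over all tested, miR-142a-5p (adjusted p = 0.0072) and miR-223-3p (0.024) among them.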
